A study of Mus musculus with 8 samples.

Results

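The genes described here encode the nuclear-encoded subunits of the mitochondrial respiratory chain. They were taken by symbol: every gene whose name begins with Nduf, Uqcr, Cox4 to Cox8 or Atp5, together with Sdha to Sdhd and Cycs. A gene entered if at least 1 probe set of the array carried its symbol and no other, and its brightest such probe set stood for it. This gave 90 genes of the 19938 that the arrays represent in this way. Grouped by symbol alone, they comprised 36 complex I subunits, 7 complex I assembly factors, 4 complex II subunits and 8 complex III subunits. The others were cytochrome c, 17 complex IV subunits and 17 ATP synthase subunits. A symbol need not match the complex in which a protein is found. No measured value entered the rule for symbols, but the rule was set with earlier results of these data known. The probe set of each gene was chosen by its signal.

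The respiratory chain transfers electrons from NADH (through complex I) and succinate (through complex II) to ubiquinone, then through complex III and cytochrome c to complex IV, which reduces oxygen. Proton pumping along the way drives the ATP synthase. Most subunits are encoded in the nucleus and imported, while a small core is encoded by mitochondrial DNA. Activated T cells raise glycolysis strongly but continue to use oxidative phosphorylation, and Th17 cells, the interleukin-17-producing helper T cells, have been studied for how they balance the 2 pathways.

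Gene expression was measured on 8 Affymetrix mouse arrays of cultured Th17 cells, in 4 groups of 2 arrays each. The tested cells came from SRC-3-deficient mice (source given as SRC-3 (f/f), the usual notation of a floxed allele, with no Cre named) and from RORγt-deficient mice (source given as RORgt (-/-)). Each had a wild-type group of its own, labelled SRC-3 WT and RORgt WT. SRC-3, encoded by Ncoa3, is a nuclear receptor coactivator, and RORγt is the nuclear receptor that directs Th17 differentiation. The labels call all the cells Th17 cells. The culture protocol describes naive CD4+ T cells stimulated through CD3 and CD28, with IL-1, IL-6 and IL-23 for the Th17 condition, and names the SRC-3 genotypes alone. Strain background and age are not given in the sources used here. The titles call the arrays biological replicates and do not say if each stands for a mouse of its own, so the spread behind every p-value may be partly technical.

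Values are RMA log2 signals, in which a difference of 1 is a doubling. The array medians were 7.90 to 7.93 in the SRC-3 experiment and 7.76 to 7.80 in the RORγt experiment. The 5 CD4 T cell markers on the arrays were above the filter value of 7.85 everywhere, and the 6 myeloid markers were below it everywhere. Ncoa3 read 11.15 and 10.97 on the SRC-3-deficient arrays, against 11.76 and 11.53 in their wild type (-0.58 on the log2 scale, limma adjusted p = 0.0567). All 4 Th17 markers fell in RORγt-deficient cells, and in SRC-3-deficient cells Il17f fell (-1.03, adjusted p = 0.0347). The sex of the cells was not matched. Xist, the RNA of the inactive X chromosome, read 6.37 and 6.08 on the RORγt-deficient arrays, against 12.55 and 12.76 on their wild-type arrays. In the SRC-3 experiment it read 7.10 and 13.60 on the deficient arrays, against 13.65 and 13.52 on the wild-type arrays. Hence the RORγt comparison sets cells of male pattern against cells of female pattern, and 1 SRC-3-deficient array alone had the male pattern. In the RORγt comparison sex and genotype cannot be told apart from its 4 arrays alone. The summed linear signal of 6 NK and CD8 T cell markers was also higher on the RORγt-deficient arrays, at 1578 and 1487, against 1091 and 1087 on their wild-type arrays. Of these 6 markers, 3 were above the filter value on each RORγt-deficient array and 2 on each wild-type array, and Klrd1 rose (1.90). Their part in the results below was not tested. The 5 B cell markers summed to 616 and 678 on the RORγt-deficient arrays, against 725 and 671 on their wild-type arrays.

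Of the 90 respiratory chain genes, 86 passed the filter, which asked for 2 or more arrays with a log2 signal of at least 7.85, the median over the whole deposited table. Ndufa4l2, Ndufaf5, Cox7b2 and Cox8b did not pass. Ndufa4l2 ranged from 7.14 to 7.37 over the 8 arrays. Cox7b2 ranged from 5.44 to 5.64. Each gene was tested with limma across all 11128 genes that passed, and a gene was called at a Benjamini-Hochberg adjusted p under 0.05.

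In SRC-3-deficient Th17 cells, no respiratory chain gene differed from wild type past the threshold. Of the 86 genes, 0 were higher and 0 were lower, against 0.189% (21 genes) of all genes tested called higher and 0.0359% (4 genes) called lower. The smallest adjusted p was 0.386. At an unadjusted p under 0.05, 3 of the 86 were higher (Ndufa9, Ndufv3 and Atp5md) and 0 were lower, against 8.20% and 4.33% of all genes. The log2 fold changes ran from -0.19 to 0.23, and their median was 0.05, against 0.02 for all genes tested. The 95% confidence interval of every one of the 86 lay within 1.5-fold in both directions. These intervals rest on 1 spread shared by all 4 groups. Over the 86 genes, the median SD of a replicate pair was 0.08 in SRC-3-deficient cells and 0.07 in their wild type. It was 0.03 in RORγt-deficient cells and 0.04 in their wild type. The intervals may thus be too narrow for the SRC-3 comparison. Only 2 arrays a group limited the precision, with intervals that reached a median of 0.17 to either side on the log2 scale.

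The 5 smallest p-values in this comparison belonged to genes of complexes I and III and of the ATP synthase, and none passed. Ndufa9, an accessory subunit of complex I, read 10.97 and 11.08 on the SRC-3-deficient arrays, against 10.68 and 10.91 on the wild-type arrays (0.23 ± 0.10, SE). The 2 groups did not overlap, but the gap between them was smaller than the spread within the wild type. Ndufv3, a small subunit of the NADH-binding part of complex I, read 10.51 and 10.46 in SRC-3-deficient cells, against 10.20 and 10.41 in wild-type cells (0.18 ± 0.08, SE). Ndufc1, a further accessory subunit, read 10.32 and 10.57 in SRC-3-deficient cells, against 10.22 and 10.29 in wild-type cells (0.19 ± 0.08, SE). Here too the replicates differed about as much as the groups. Uqcrfs1, the Rieske iron-sulfur protein of complex III, read 9.73 and 9.72 in SRC-3-deficient cells, against 9.58 and 9.58 in wild-type cells (0.14 ± 0.06, SE, adjusted p = 0.406). Its replicates were close and its groups did not overlap, but the difference was small. Atp5md is described with the ATP synthase below.

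Positive differences were more frequent than negative ones in SRC-3-deficient cells. The log2 fold change was positive for 64 of the 86 genes (74.4%), against 57.2% of all genes tested. It was positive for 16 of the 17 ATP synthase subunits (median 0.07), 7 of the 8 complex III subunits (median 0.11) and 28 of the 35 complex I subunits (median 0.05). It was positive for 1 of the 6 assembly factors of complex I (median -0.05). The 2 SRC-3-deficient arrays lay entirely above the wild-type arrays for 20 of the 86 genes (23.3%), against 23.0% of all genes, and entirely below for 6 (6.98%), against 14.3% of all genes. The replicates of one genotype differed by a similar amount. Of the 86 genes, 65 read higher on the second SRC-3-deficient array than on the first, and 58 read higher on the second wild-type array than on the first. The mean over the 86 genes, relative to the mean of the experiment, came to -0.02 and 0.07 in SRC-3-deficient cells, against -0.04 and 0.00 in wild-type cells. The ranges of the 2 groups therefore overlapped. Within each replicate number the SRC-3-deficient array had the higher mean, though no label pairs the arrays by number. With the shift of all genes tested subtracted, the first arrays had -0.0229 (SRC-3-deficient) and -0.0235 (wild type). The second arrays had 0.0416 and 0.0048, in the same order. Without the second SRC-3-deficient array the median log2 fold change of the 86 genes was -0.00052, and without the first wild-type array it was 0.02. The former sets the SRC-3-deficient array of male pattern against 2 wild-type arrays of female pattern. The second SRC-3-deficient array, of female pattern, had the mean of 0.07, above both wild-type arrays.

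In RORγt-deficient Th17 cells, 7 respiratory chain genes fell and 0 rose. They were the complex I subunit Ndufb6, the complex I assembly factors Ndufaf4 and Ndufaf6, the complex IV subunits Cox7a1, Cox4i2 and Cox6b1, and the ATP synthase subunit Atp5md. The 7 genes are 8.14% of the 86, against 9.37% (1043 genes) of all genes tested called lower, and the 0 that rose compare with 10.0% (1114 genes) of all genes called higher. The share that fell was thus near that of all genes. The count of 7 was smaller when any 1 of the 4 RORγt arrays was left out, which leaves 1 array in a group. At an unadjusted p under 0.05, 13 of the 86 were lower (15.1%) and 0 were higher, against 16.4% and 18.2% of all genes. The median log2 fold change was -0.03, against 0.00 for all genes tested, and the range was -0.63 to 0.22. Without the first RORγt wild-type array the median was -0.0058, and without the second it was -0.07. No member reached a 2-fold change. In RNA from whole cultures, fewer cells that express a gene and less RNA per cell cannot be told apart.

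**Figure D1:**
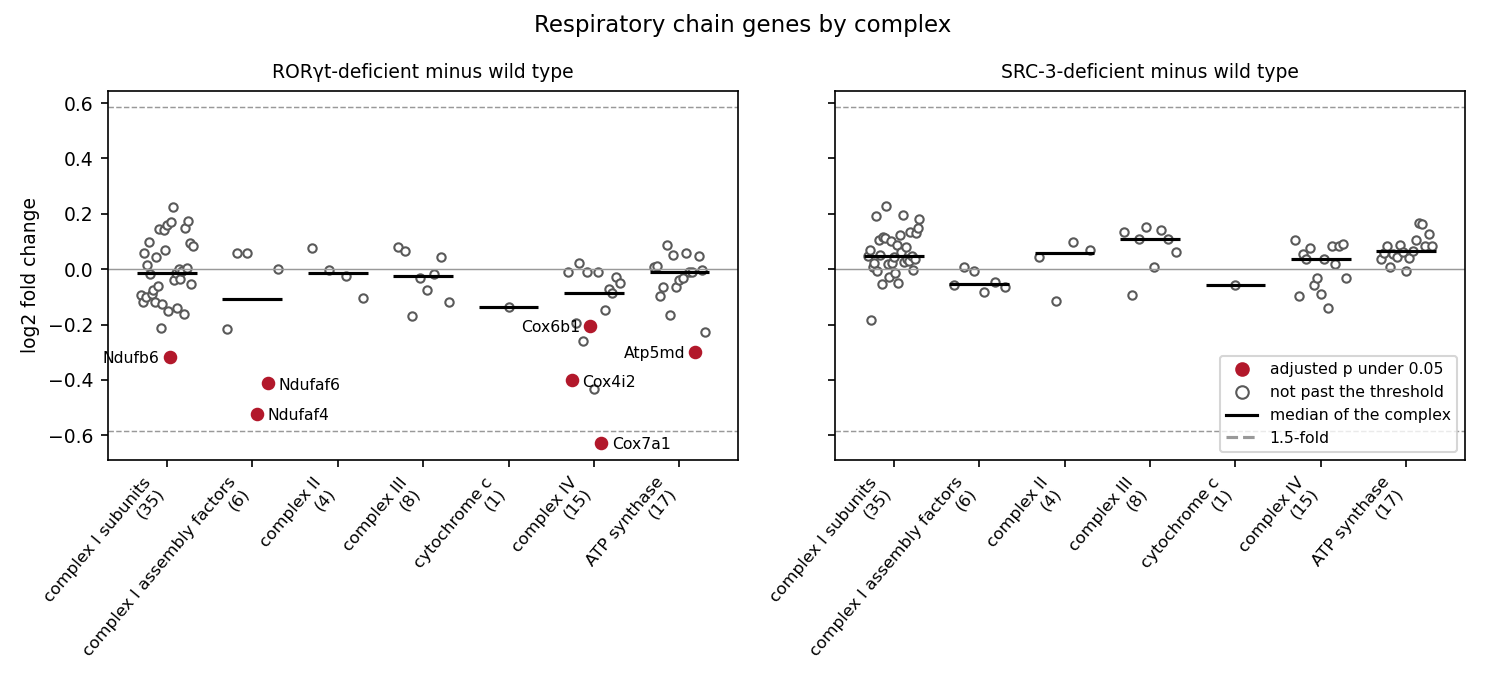
Log2 fold change of each of the 86 genes tested (vertical axis) by complex (horizontal axis, number of genes in brackets), for RORγt-deficient minus wild-type cells on the left and SRC-3-deficient minus wild-type cells on the right. Each point is a gene, filled points are the 7 genes past an adjusted p of 0.05, bars are medians and dashed lines mark 1.5-fold. All 7 filled points lie below 0 in the left panel, and the right panel has none.

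Sex moved with the genotype in this comparison, as described above. With a sex term in the fit, estimated from the SRC-3-deficient pair that differs in sex, 0 of the 86 genes passed in either direction, and the adjusted p of the 7 genes lay between 0.0769 (Ndufaf4) and 0.570 (Ndufb6). The term also left 43 of all genes called lower. With the term the log2 fold changes were -0.54 for Ndufaf4, -0.41 for Cox4i2, -0.39 for Ndufaf6, -0.34 for Atp5md and -0.22 for Cox6b1, each close to its value without the term. Those of Cox7a1 and Ndufb6 were smaller in size, at -0.39 and -0.16. The median of the 86 genes turned positive, to 0.043. The SRC-3-deficient arrays that set the term also differ in replicate number, so the term cannot separate sex from other differences between them. On the second of them the 86 genes read higher by a median of 0.10. In the SRC-3 wild-type pair, both of female pattern, that median was 0.05.

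The 2 assembly factors of complex I that fell are not part of the finished enzyme. Ndufaf4 (on chromosome 4), which acts with Ndufaf3 in building complex I, read 8.30 and 8.20 on the RORγt-deficient arrays, against 8.77 and 8.77 on their wild-type arrays. Its log2 fold change was -0.52 ± 0.06 (SE, adjusted p = 0.00298), a ratio of 0.696 deficient over wild type. Both deficient arrays lay well below both wild-type arrays. In the SRC-3 experiment Ndufaf4 read 8.38 and 8.36 in SRC-3-deficient cells, against 8.50 and 8.40 in wild-type cells (-0.08, adjusted p = 0.680). The array medians differed between the 2 experiments, so the level of a gene is compared only within each. Ndufaf6, which is needed at an early step of complex I assembly, read 7.51 and 7.42 on the RORγt-deficient arrays, against 7.84 and 7.91 on their wild-type arrays (-0.41 ± 0.06, SE, adjusted p = 0.00535). Only 3 of its 8 arrays reached the filter value of 7.85, and all 3 were wild-type arrays. It thus passed the filter only through the groups where it was higher, and without it 6 genes were called. The other 4 tested assembly factors did not pass. Among them Ndufaf1 read 9.94 and 9.95 in RORγt-deficient cells, against 10.20 and 10.11 in wild-type cells (-0.22, adjusted p = 0.0928). Ndufaf2, Ndufaf3 and Ndufaf7 had log2 fold changes of 0.06, 0.06 and 0.00.

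Of the 35 tested subunits of complex I, 1 fell. Ndufb6, an accessory subunit of the membrane arm, read 12.12 and 11.97 on the RORγt-deficient arrays, against 12.43 and 12.29 on their wild-type arrays. Its log2 fold change was -0.32 ± 0.09 (SE, adjusted p = 0.0475), and the groups did not overlap. The adjusted p lay just under the threshold, and the call was lost in 8 of 18 alternative settings, among them leaving out any 1 of the 4 RORγt arrays. The other 34 did not pass, and 16 of the 35 had a positive log2 fold change (median -0.01). The highest was Ndufb8, a subunit of the membrane arm, at 10.38 and 10.62 in RORγt-deficient cells, against 10.37 and 10.17 in wild-type cells (0.22 ± 0.11, SE). Its replicates spread over most of that difference. Ndufab1, the mitochondrial acyl carrier protein, read 10.51 and 10.46 in RORγt-deficient cells, against 10.73 and 10.67 in wild-type cells (-0.21, adjusted p = 0.0742). Ndufs1, which carries iron-sulfur clusters in the electron path, had a log2 fold change of 0.00. Ndufv1, which binds NADH, had one of 0.09, and neither passed. The X-linked subunits were followed because sex differed between these arrays. Ndufa1 read 9.75 and 9.62 in RORγt-deficient cells, against 9.84 and 9.71 in wild-type cells (-0.09). Ndufb11 read 12.86 and 12.89 in RORγt-deficient cells, against 12.75 and 12.72 in wild-type cells (0.14, adjusted p = 0.157). Its other probe set was not the one tested. That probe set read 12.51 and 12.64 in RORγt-deficient cells, against 12.29 and 12.29 in wild-type cells (0.29).

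Complex II, which is also the succinate dehydrogenase of the tricarboxylic acid cycle, did not differ past the threshold in either comparison. Sdha, the flavoprotein subunit, read 11.84 and 11.81 in RORγt-deficient cells, against 11.78 and 11.71 in wild-type cells (0.08). Sdhb, the iron-sulfur subunit, read 11.04 and 11.01 in RORγt-deficient cells, against 11.08 and 10.98 in wild-type cells (0.00). The membrane anchors Sdhc and Sdhd had log2 fold changes of -0.02 and -0.10. The values of Sdha, Sdhb, Sdhc and Sdhd in SRC-3-deficient minus wild-type cells were 0.04, -0.11, 0.10 and 0.07. The complex II genes thus stayed close to wild type in both comparisons.

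Complex III and cytochrome c likewise had no gene past the threshold. The 8 complex III genes had log2 fold changes of -0.17 (Uqcrb) to 0.08 (Uqcr10) in RORγt-deficient cells, with a median of -0.02. Uqcrc1, a core protein of the complex, read 11.88 and 11.82 in RORγt-deficient cells, against 11.92 and 11.84 in wild-type cells. Cycs, which carries electrons from complex III to complex IV and triggers caspase activation when released to the cytosol, read 12.75 and 12.76 in RORγt-deficient cells, against 12.94 and 12.85 in wild-type cells (-0.14, adjusted p = 0.514). In the SRC-3 experiment Cycs read 12.99 and 12.79 in SRC-3-deficient cells, against 13.16 and 12.74 in wild-type cells (-0.06, adjusted p = 0.918). The 2 wild-type replicates of the SRC-3 experiment lay further apart than any difference between genotypes.

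Complex IV had the most called genes, with 3 of 15 lower in RORγt-deficient cells (20%), against 9.37% of all genes. The log2 fold change was negative for 14 of the 15 (median -0.09), against 5524 of all 11128 genes tested. In 9 of the 15 (60%) both deficient arrays lay below both wild-type arrays, against 34.2% of all genes. The largest difference among all 86 genes was that of Cox7a1 (chromosome 7), the form of subunit 7a best known from heart and skeletal muscle. Cox7a1 read 8.39 and 8.45 on the RORγt-deficient arrays, against 9.04 and 9.06 on their wild-type arrays. Its log2 fold change was -0.63 ± 0.09 (SE, adjusted p = 0.00521), a ratio of 0.647. In the SRC-3 experiment Cox7a1 read 8.23 and 8.46 in SRC-3-deficient cells, against 8.41 and 8.57 in wild-type cells (-0.14, adjusted p = 0.583). With the sex term the RORγt value of Cox7a1 was -0.39. Cox4i2, a form of subunit 4 known from lung and induced by low oxygen, read 8.18 and 8.11 on the RORγt-deficient arrays, against 8.49 and 8.61 on their wild-type arrays (-0.40 ± 0.06, SE, adjusted p = 0.00657). The groups did not overlap, and without the second RORγt wild-type array the adjusted p was 0.0536. Cox6b1, the widely expressed form of subunit 6b, read 12.32 and 12.39 in RORγt-deficient cells, against 12.60 and 12.53 in wild-type cells (-0.21 ± 0.06, SE, adjusted p = 0.0466). Its call was lost in 10 of 18 alternative settings.

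The other forms of the subunits that exist in tissue-specific versions gave these values. Cox4i1, the widely expressed form of subunit 4, read 11.36 and 11.40 in RORγt-deficient cells, against 11.45 and 11.33 in wild-type cells (-0.01, adjusted p = 0.934). Its groups overlapped, while those of Cox4i2 did not. Cox7a2, the form of subunit 7a found in most tissues, read 11.41 and 11.29 in RORγt-deficient cells, against 11.59 and 11.41 in wild-type cells (-0.15, adjusted p = 0.250). Cox7a2l, which is involved in joining complexes III and IV, had a log2 fold change of -0.07. Cox6b2, the testis form of subunit 6b, read 8.62 and 8.99 in RORγt-deficient cells, against 9.18 and 9.30 in wild-type cells (-0.43 ± 0.15, SE, adjusted p = 0.0797). Its replicates were far apart in the deficient cells, and its log2 fold change was the largest in size among those that did not pass. Cox6a1, the widely expressed form of subunit 6a, read 11.46 and 11.44 in RORγt-deficient cells, against 11.89 and 11.52 in wild-type cells (-0.26, adjusted p = 0.168). Cox6a2, the muscle form, had a log2 fold change of -0.01. Cox8a and Cox8c had -0.03 and -0.05, and Cox7b, which is X-linked, had -0.09. No test compared one form with another.

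**Figure D2:**
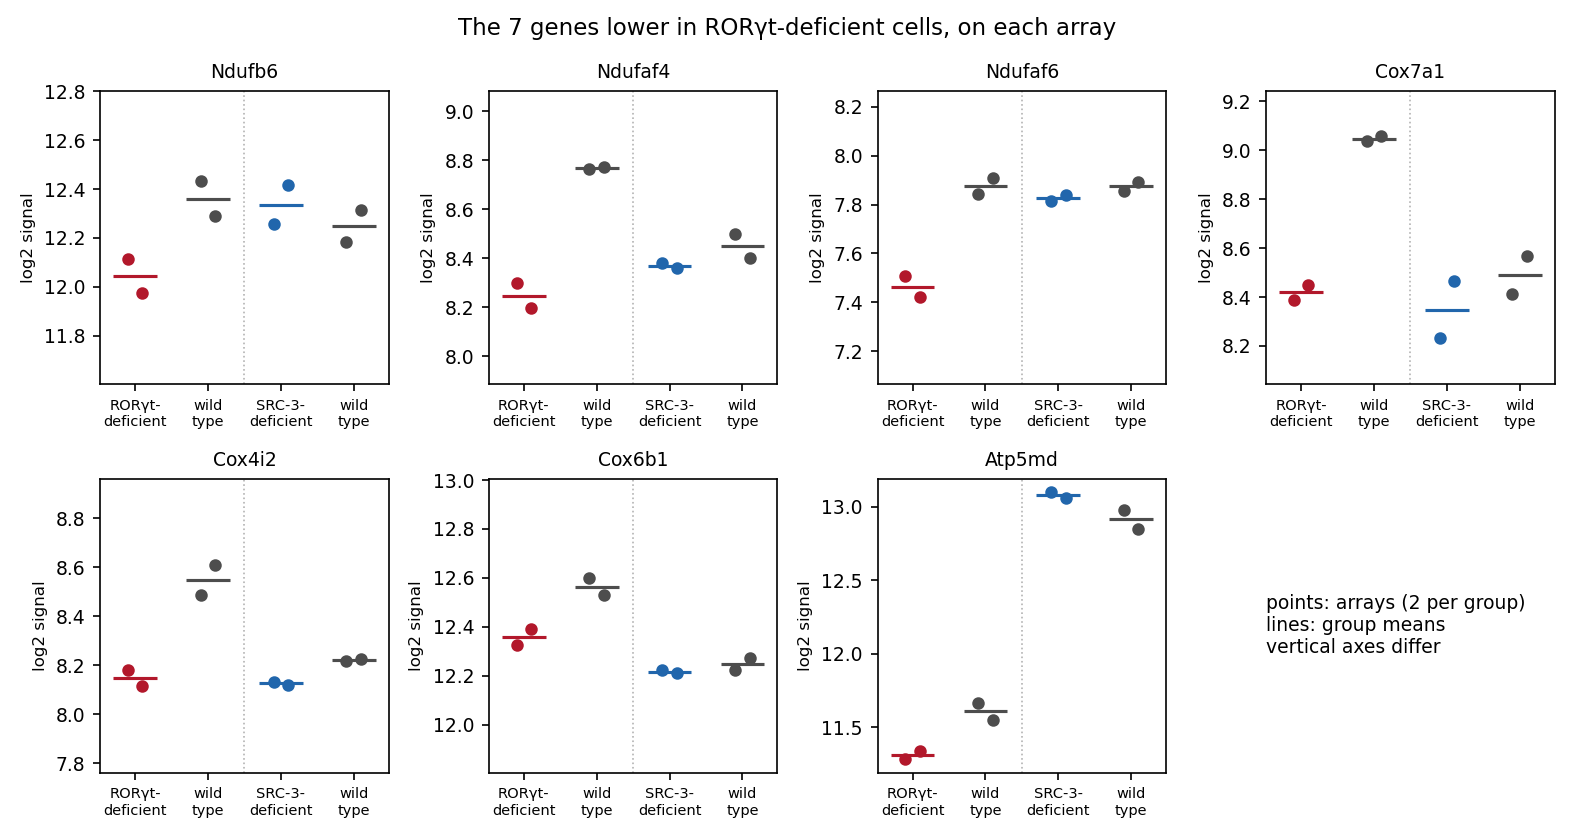
Log2 signal (vertical axes, which differ between panels) of the 7 genes that fell in RORγt-deficient cells, on each of the 8 arrays. Points are arrays and lines are the means of 2 arrays; each deficient group stands left of its own wild type. In every panel both RORγt-deficient arrays lie below both RORγt wild-type arrays.

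The ATP synthase had 1 called gene of 17. Atp5md (chromosome 19), a small membrane subunit associated with dimers of the enzyme, read 11.28 and 11.34 on the RORγt-deficient arrays, against 11.67 and 11.55 on their wild-type arrays (-0.30 ± 0.07, SE, adjusted p = 0.0248). Its other 2 probe sets gave -0.31 and -0.27. The call was lost when any 1 of the 4 RORγt arrays was left out, with adjusted p between 0.0668 and 0.156. In the SRC-3 experiment the sign was opposite, with 13.10 and 13.06 in SRC-3-deficient cells, against 12.98 and 12.85 in wild-type cells (0.16 ± 0.07, SE, adjusted p = 0.393). Atp5pb, the stalk subunit b, read 11.61 and 11.54 in RORγt-deficient cells, against 11.82 and 11.79 in wild-type cells (-0.23, adjusted p = 0.0817). The catalytic subunits showed small differences. Atp5a1 read 12.67 and 12.66 in RORγt-deficient cells, against 12.68 and 12.64 in wild-type cells (0.01). Atp5b read 13.60 and 13.59 in RORγt-deficient cells, against 13.55 and 13.61 in wild-type cells (0.01).

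Over the whole set, the RORγt-deficient arrays lay entirely below the wild-type arrays for 34 of the 86 genes (39.5%), against 34.2% of all genes, and entirely above for 14 (16.3%), against 35.8% of all genes. The 79 genes that did not pass had log2 fold changes of -0.43 to 0.22. Of these, 5 had an adjusted p between 0.05 and 0.10, all with lower values in RORγt-deficient cells: Ndufab1, Cox6b2, Atp5pb, Ndufb5 and Ndufaf1. Calls were more frequent among the genes with a lower signal. Of the 17 genes with a mean log2 signal under 9.78 (the 75th percentile over the whole deposited table), 4 were called (23.5%), against 18.1% of all genes tested in that range. Of the 69 genes at or above it, 3 were called (4.35%), against 20.7% of all genes in that range. The 4 called genes of lower signal were Ndufaf4, Ndufaf6, Cox7a1 and Cox4i2. Of these, Ndufaf6 passed the filter only through wild-type arrays, where it was higher. The share of 23.5% thus rests in part on the filter and on few genes.

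The mean of each complex on each array showed where these differences lay. For complex IV the mean of 15 genes, relative to the mean of the experiment, was -0.08 and -0.08 on the RORγt-deficient arrays, against 0.11 and 0.06 on their wild-type arrays. For all 86 genes it was -0.03 and -0.03 on the RORγt-deficient arrays, against 0.06 and -0.01 on their wild-type arrays. For the 6 assembly factors of complex I it was -0.07 and -0.11 on the RORγt-deficient arrays, against 0.11 and 0.06 on their wild-type arrays. This gap was similar to that of complex IV and came from Ndufaf4 (-0.52), Ndufaf6 (-0.41) and Ndufaf1 (-0.22). The log2 fold changes of Ndufaf2, Ndufaf3 and Ndufaf7 were 0.06, 0.06 and 0.00. In complex IV the largest falls were those of Cox7a1 (-0.63), Cox6b2 (-0.43) and Cox4i2 (-0.40), with mean log2 signals of 8.58, 8.43 and 8.26. The median of its 15 genes was -0.09, and 14 of them were negative. Cycs gave -0.07 and -0.07 on the RORγt-deficient arrays, against 0.11 and 0.03 on their wild-type arrays. The 17 ATP synthase genes gave -0.01 and -0.03 on the RORγt-deficient arrays, against 0.05 and -0.01 on their wild-type arrays, which separated the groups by a small margin. The groups overlapped for complex I subunits, complex II and complex III. Of the 86 genes, 17 read higher on the second RORγt wild-type array than on the first.

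**Figure D3:**
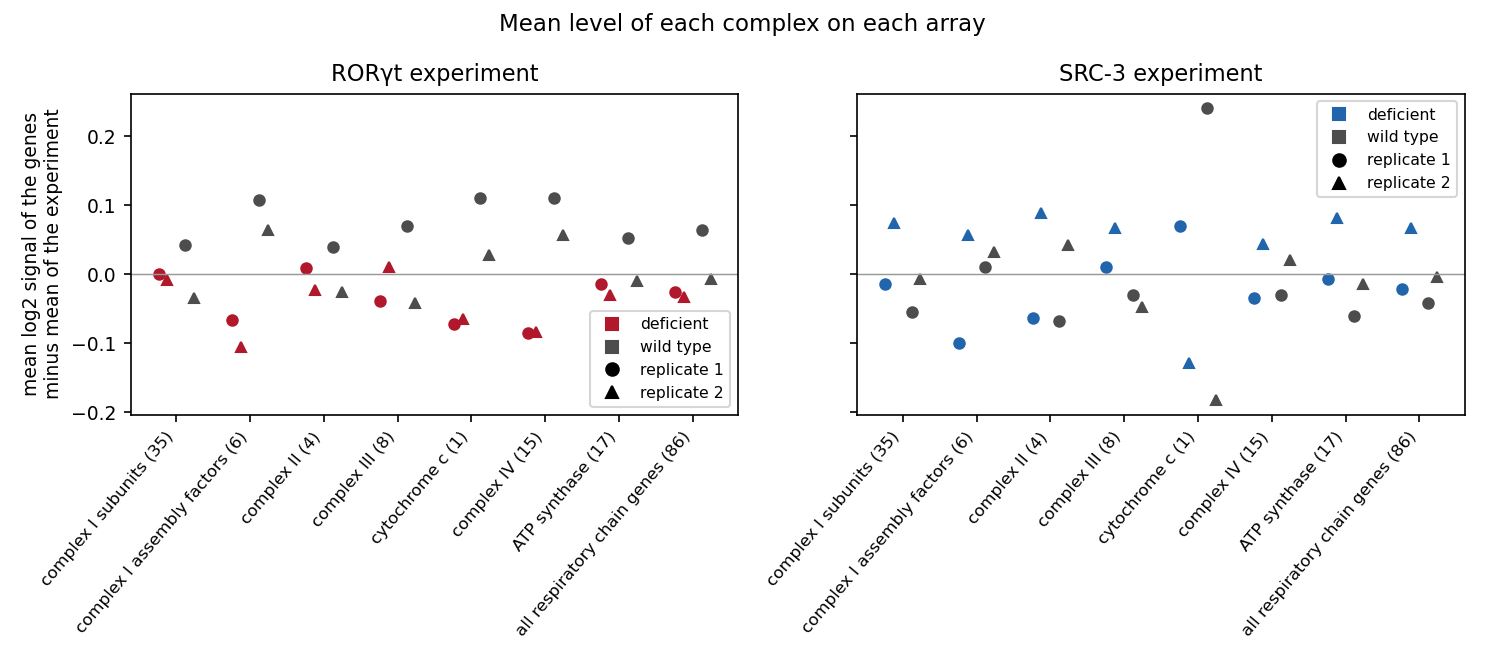
Mean log2 signal of the tested genes of each complex on each array, minus the mean over the 4 arrays of the same experiment (vertical axis), by complex (horizontal axis, number of genes in brackets). Colours mark deficient and wild-type arrays, and circles and triangles mark replicates 1 and 2. In the left panel complex IV has both RORγt-deficient arrays at -0.08, below the wild-type arrays at 0.11 and 0.06, and the assembly factors of complex I have -0.07 and -0.11, below 0.11 and 0.06.

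The 2 experiments were compared directly by testing the SRC-3 effect minus the RORγt effect for each gene. No respiratory chain gene passed (0 of 86), against 1.67% (186 genes) of all genes tested. At an unadjusted p under 0.05, 7 of the 86 differed (8.14%), against 17.25% of all genes. The smallest adjusted p was that of Ndufaf4 (difference 0.44, adjusted p = 0.0623), followed by Atp5md (0.46, adjusted p = 0.0723) and Ndufaf6 (0.36, adjusted p = 0.0865). The difference was positive for 69 of the 86 genes, against 6005 of all 11128 genes tested. Its median was 0.09, against 0.02 for all genes tested. By sign, 40 genes had a positive SRC-3 value and a negative RORγt value, 6 the opposite, 24 were positive in both and 16 negative in both. Among all genes tested these counts were 2394, 1635, 3969 and 3128, in the same order. With an intensity trend and a robust prior in the fit, 1 gene passed (Atp5md, adjusted p = 0.0465).

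Promoter sequences are given for 4 of the genes that fell, so that the start-site regions of these genes of complexes I and IV can be read beside their values. Ndufaf6 and Cox4i2 had no entry among the promoters used. That of Atp5md is not printed, and it had 1 match, to the ETS site. The sequences come from the RefSeq annotation of GRCm38.p6 and run from 250 bases before to 50 bases after the start. Each is written 5′ to 3′ on the strand of the gene. Ndufaf4 lies at chr4:24897833-24898132 on the plus strand, Cox7a1 at chr7:30183921-30184220 on the plus strand, Cox6b1 at chr7:30626065-30626364 on the minus strand and Ndufb6 at chr4:40279372-40279671 on the minus strand. Capitals mark matches to the motifs named after the sequences, on either strand.
Ndufaf4: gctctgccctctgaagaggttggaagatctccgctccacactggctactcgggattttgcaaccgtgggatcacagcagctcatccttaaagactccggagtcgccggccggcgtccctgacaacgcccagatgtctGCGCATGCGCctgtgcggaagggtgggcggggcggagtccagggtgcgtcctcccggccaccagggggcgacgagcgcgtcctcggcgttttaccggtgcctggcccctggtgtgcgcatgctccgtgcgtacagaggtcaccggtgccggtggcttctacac
Cox7a1: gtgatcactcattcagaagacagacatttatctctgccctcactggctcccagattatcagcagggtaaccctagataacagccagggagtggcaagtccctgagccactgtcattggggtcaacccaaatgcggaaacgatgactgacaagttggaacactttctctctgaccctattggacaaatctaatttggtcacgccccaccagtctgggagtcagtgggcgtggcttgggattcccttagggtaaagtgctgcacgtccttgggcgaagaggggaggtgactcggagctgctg
Cox6b1: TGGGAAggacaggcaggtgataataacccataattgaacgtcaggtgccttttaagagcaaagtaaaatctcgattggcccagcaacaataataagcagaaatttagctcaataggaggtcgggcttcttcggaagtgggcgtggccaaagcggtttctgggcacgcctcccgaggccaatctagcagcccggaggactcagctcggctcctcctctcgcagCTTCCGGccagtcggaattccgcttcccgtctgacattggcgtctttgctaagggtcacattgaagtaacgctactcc
Ndufb6: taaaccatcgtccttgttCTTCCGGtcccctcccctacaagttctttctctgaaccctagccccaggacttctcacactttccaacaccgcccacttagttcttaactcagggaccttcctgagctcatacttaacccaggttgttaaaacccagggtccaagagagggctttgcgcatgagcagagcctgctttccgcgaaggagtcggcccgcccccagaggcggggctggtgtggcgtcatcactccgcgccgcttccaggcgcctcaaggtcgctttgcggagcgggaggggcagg
In Ndufaf4 the capitals are a match to NRF1, a regulator of nuclear genes for mitochondrial proteins, which begins at position -113 from the start. In Cox6b1 they are a match to the RBPJ core at position -250 and to the ETS site at position -28. In Ndufb6 they are a match to the ETS site at position -232. In Cox7a1 none of the motifs searched occurs in this window.

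The same motifs were counted in the promoters of the whole set, where 74 of the 90 genes had an entry, with 79 promoters. The NRF1 site (GCGC, any base, then TGCGC) was found in 24.1% of the 79 promoters, against 10.2% of the promoters of all genes tested and 4.6% of all 32851 promoters in the table. The ETS site (CCGGAAG) was found in 22.8%, against 17.9% and 8.86%. YY1 (AAGATGGCG) was found in 8.86%, against 3.05% and 1.4%. The ERR element (AAGGTCA) was found in 8.86%, against 3.06% and 4.72%. The ROR element, read here as TAGGTCA or TGGGTCA, was found in 7.59%, against 5.01% and 6.45%. The RBPJ core (TGGGAA) was found in 19% of the promoters, against 22.5% and 25.6%. Both strands were searched. A match describes letters in this window and does not show that a factor binds there.

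Genes that work beside the respiratory chain were read from lists of known function. The lists were chosen with results of these data known, and 0 genes of any mitochondrial list passed in SRC-3-deficient cells. The 2 genes of mitochondrial DNA that were measured showed no call. In RORγt-deficient minus wild-type cells ND3, a complex I subunit, had a log2 fold change of -0.11 (adjusted p = 0.205), and COX2, a complex IV subunit, one of -0.06 (adjusted p = 0.522). Of 41 other respiratory chain subunits and assembly factors, 3 rose and 3 fell. Among them Lrpprc, which stabilises mitochondrial messenger RNA, read 9.87 and 9.83 in RORγt-deficient cells, against 10.23 and 10.23 in wild-type cells (-0.38). Tmem126b, a complex I assembly factor, read 8.96 and 8.92 in RORγt-deficient cells, against 8.57 and 8.60 in wild-type cells (0.36). Each direction holds 7.32% of the list, against 9.37% of all genes called lower and 10.0% called higher.

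Of the mitochondrial lists, that of protein import had the highest share of called genes, with 12 of 30 lower and 0 higher in RORγt-deficient cells (40%), against 9.37% and 10.0% of all genes. The median of the 30 log2 fold changes was -0.14. Hspa9, the matrix chaperone that pulls precursors in, read 11.40 and 11.34 in RORγt-deficient cells, against 11.86 and 11.90 in wild-type cells (-0.51, adjusted p = 0.00298). Chchd4, which oxidises imported proteins in the intermembrane space, read 8.54 and 8.66 in RORγt-deficient cells, against 9.39 and 9.25 in wild-type cells (-0.72). Timm8a1, a chaperone of the same space, read 8.41 and 8.48 in RORγt-deficient cells, against 8.96 and 8.86 in wild-type cells (-0.46). In these genes the groups did not overlap. Hspd1, the matrix chaperonin, had a log2 fold change of -0.51. The count of 12 was 1 with the sex term, and 2, 7, 3 and 6 without the first and second RORγt-deficient array and the first and second RORγt wild-type array.

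Of 20 regulators of mitochondrial transcription, replication and biogenesis, 5 fell (25%) and 1 rose (5%) in RORγt-deficient cells, against 9.37% and 10.0% of all genes. Pprc1, a coactivator of the PGC-1 family, read 9.36 and 9.54 in RORγt-deficient cells, against 10.05 and 10.08 in wild-type cells (-0.61). Tfb2m, a factor that starts transcription of mitochondrial DNA, had a log2 fold change of -0.42, and Top1mt, the mitochondrial topoisomerase, one of -0.40. Polg2, the accessory subunit of the mitochondrial DNA polymerase, was the one that rose, with 9.16 and 9.11 in RORγt-deficient cells, against 8.57 and 8.51 in wild-type cells (0.60). Of 77 mitochondrial ribosomal protein genes, 7 fell (9.09%) and 1 rose (1.3%), against the same shares of all genes, so the share that fell was near that of all genes. Mrps18b had the smallest p of these (-0.55, adjusted p = 0.00416). Of 18 tricarboxylic acid cycle enzymes, Pcx, the pyruvate carboxylase, rose (0.33) and Idh3a, a subunit of isocitrate dehydrogenase, fell (-0.39), which is 5.56% of the list in each direction. Of 10 antioxidant and uncoupling genes, Sod2, the superoxide dismutase of the matrix, fell (-0.30), which is 10% of the list, near the share of all genes.

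**Figure D4:**
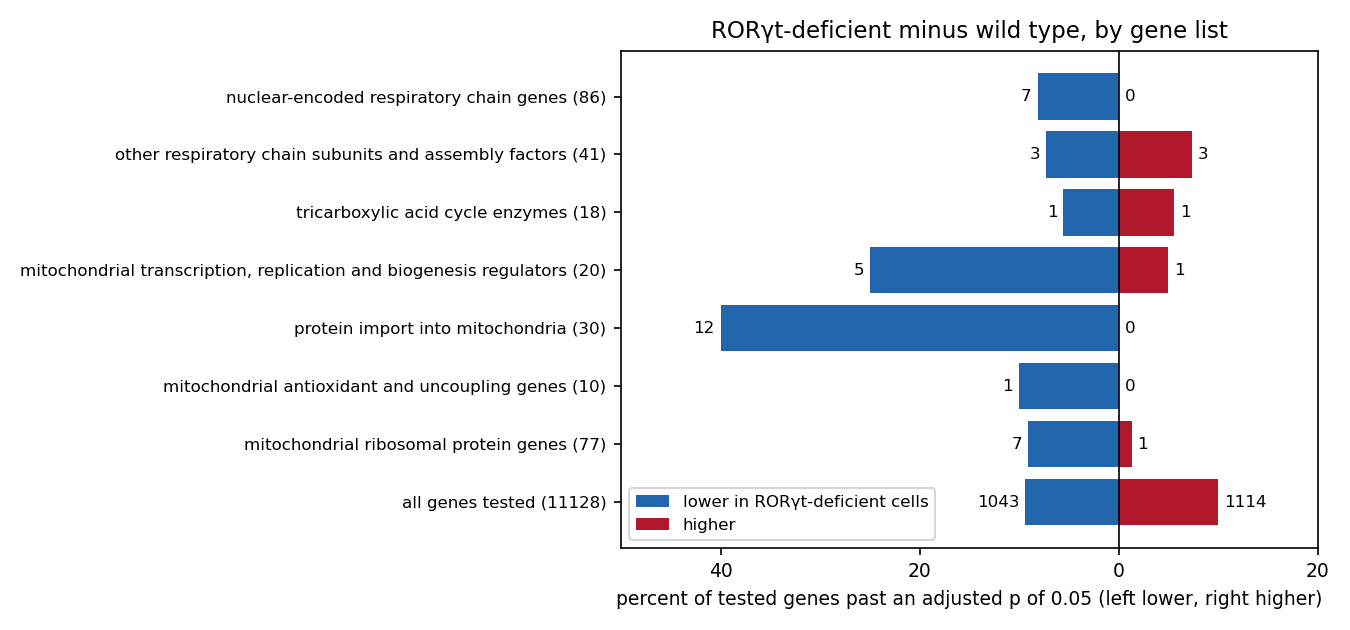
Percent of the tested genes of each list past an adjusted p of 0.05 (horizontal axis) in RORγt-deficient minus wild-type cells, with lower genes to the left of 0 and higher genes to the right; numbers at the bars are genes and numbers in brackets are genes tested. The respiratory chain genes have 7 lower and 0 higher, and the protein import genes have 12 lower and 0 higher.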

How the data were processed

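RNA of 8 samples was hybridised to Affymetrix Mouse Gene 1.0 ST arrays. The submitters' processing notes name RMA and Affymetrix Expression Console for the deposited log2 signals, and their versions and settings are not given in the sources used here. RMA corrects background, puts all arrays on 1 distribution and summarises probes, so a change shared by most genes cannot be seen. Scanner files were not used here. Of 35556 probe sets, 21789 had 1 symbol in the platform annotation, 1621 had several and 12146 had none. Probe sets with several symbols were left out of the tests. A probe set can also read near-identical copies of a gene.

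The fit was limma 3.58.1 in R 4.3.3, with 4 group means over all 8 arrays, which share 1 estimate of the spread (4 residual degrees of freedom), and Benjamini-Hochberg adjustment over 11128 genes. The arrays compared were the 2 of each deficient group against the 2 of its own wild type, and the difference of both effects was tested in the same fit. The members and the gene lists were chosen with earlier results of these data known. Any member could be named. Given in full were those past the threshold or, with fewer than 5, the 5 smallest p, then cytochrome c, complex II, X-linked members and tissue forms, and up to 4 genes of each other list by smallest p. Other genes are named where a range or count turned on them. The fit was tested on simulated data. Alternatives covered normalization, filter, probe set choice, prior, array weights, a sex term, a replicate block, the 4 arrays of a comparison alone, the threshold and leaving out each array.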

Additional observations from a re-analysis of the deposited data

How the results depend on the processing

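The count of 0 respiratory chain genes in SRC-3-deficient cells held in every alternative run, as did the sign of each called gene in RORγt-deficient cells. The 7 lower genes of the RORγt comparison were 3 of 71 with the stricter filter (which drops the 4 dim ones). They were 12 with the 4 arrays alone, 12 with array weights, 12 at an adjusted p of 0.10 and 0 with the sex term. The number of all genes called also changed between settings, as with the sex term and the replicate block. The counts in this paragraph are of listed genes alone and do not show a change particular to them. Leaving out 1 array gave 3 to 8, with the 4 RORγt arrays giving 3 or 4. Ndufaf4, Ndufaf6 and Cox7a1 lost their call with the sex term alone. The 0 higher genes became 1 when a gene's probe sets were averaged, 1 with the 4 arrays alone and 1 with array weights. The RORγt median of -0.03 was 0.043 with the sex term and -0.07 to -0.01 without 1 array, and the SRC-3 median of 0.05 was -0.00052 (without the second SRC-3-deficient array) to 0.10. The 0 genes whose effects differ became 1 (Atp5md) with an intensity trend and robust prior and 3 (Atp5md, Ndufaf4 and Ndufaf6) at an adjusted p of 0.10. The 12 protein import genes, an alternative added after seeing the data, were 1 with the sex term and 2 to 11 without 1 array. The cause of these shifts was not tested, apart from the genes a filter removes.

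No label says that samples of the same replicate number belong together. Across genes, same-numbered deviations correlated at 0.536 in the SRC-3 experiment and 0.00174 in the RORγt experiment. In the SRC-3 experiment both genotypes thus shared part of the difference between replicate numbers, and the cause was not tested. With the replicate block, 301 (against 25) and 3411 (against 2157) of all genes were called. Among the respiratory chain genes it gave 0 in SRC-3-deficient cells, 10 lower in RORγt-deficient cells (with Cox6b2, Ndufab1 and Ndufaf1 added) and 5 whose effects differ (Atp5md, Cox7a1, Ndufaf4, Ndufaf6 and Ndufb6). The number of arrays, 2 a group, limits the precision throughout, and genes near the filter value lie close to background.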

Other observations

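Probe sets whose symbols include a member and a near-identical copy were left out of the tests, and they gave these values. The 3 probe sets of Cox7c and Gm12338 had log2 differences of -0.10, -0.10 and -0.09 in RORγt-deficient minus wild-type cells, and of 0.09, 0.09 and 0.06 in SRC-3-deficient minus wild-type cells. Cox7c encodes a complex IV subunit. The 2 probe sets of Ndufb4 and Ndufb4b had -0.04 and -0.04 in RORγt-deficient cells and 0.12 and 0.12 in SRC-3-deficient cells, each relative to its own wild type. The probe set of Ndufs5 and Ndufs5-ps had 0.04 in RORγt-deficient cells and 0.06 in SRC-3-deficient cells. Signals of the gene and of its copy cannot be told apart on these probe sets, and none of these differences was tested.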
